A study of Arabidopsis thaliana with 8 samples.

Results

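The genes described here are 10 CC-type glutaredoxins of Arabidopsis thaliana, out of 21 genes of this class that were listed. They are the 5 genes of a tandem cluster on chromosome 4, namely GRXS8 (AT4G15660), GRXS7 (AT4G15670), GRXS4 (AT4G15680), GRXS5 (AT4G15690) and GRXS3 (AT4G15700), together with GRXS1 (AT1G03020), GRXS2 (AT5G18600), GRXS13 (AT1G03850), GRXC11 (AT3G62950) and GRX480 (AT1G28480). They were chosen by locus, with their difference between the genotypes already known, so that difference is given as a description and without a test. All 10 had a probe, 13 probes in all, and 8 of the 10 passed the filter on dim signals, which 25102 genes of the array passed. Leaf RNA from 54-day-old plants was hybridised to 8 one-colour arrays, of which 4 carried RNA of 35S::Rap2.9-GFP plants and 4 that of untransformed Col-0 plants. Col-0 is also the background of the transgenic plants. In the transgenic plants the viral 35S promoter, active in most plant cells, drives the AP2/ERF transcription factor RAP2.9 joined to green fluorescent protein. Nothing in the labels says how many independent lines were used or whether leaves were pooled. Neither genotype was treated. Seeds were kept at 7 °C for 3 days, then plants had 20 days of 8 h light at 22 °C and 34 days of 12 h light at 22 °C and 12 h dark at 18 °C.

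Glutaredoxins are small proteins that use glutathione to reduce disulfides or that bind iron-sulfur clusters. The CC-type class, also called ROXY, is found in land plants and is named for the paired cysteines of its active site. Several members bind TGA transcription factors in the nucleus. The chromosome 4 genes are known to respond to nitrate and cytokinin and to restrain primary root growth, GRX480 is induced by salicylic acid and represses jasmonate-responsive defensin genes when overexpressed, and GRXS13 has been tied to oxidative stress and to susceptibility to a fungal pathogen. ROXY1 and ROXY2, which are not among the 10, act in petal and anther development.

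Signals are given as a percentage of the 75th percentile of the same array, which was 1699 to 2576 intensity units. A probe counts as detected where the scanner software marked it well above background, which held for 72.5% to 84.3% of probes per array. The dimmest detected signal lay between 0.468% and 0.864% on the wild-type arrays and between 0.642% and 1.61% on the transgenic arrays, highest on transgenic replicate 1. Pearson's r across probes, which are not independent replicates, ran from 0.986 to 0.992 for pairs of wild-type arrays, from 0.982 to 0.993 for pairs of transgenic arrays and from 0.964 to 0.977 for mixed pairs. Each of 2 slides carried 2 arrays of each genotype. The brighter probe for RAP2.9 was 17.7-fold higher in the transgenic leaves and its other probe 3.42-fold lower, with no overlap between the genotypes for either. The photosynthetic marker RBCS1A, the small subunit of Rubisco, read 14839% to 20865% on the 8 arrays. The number of arrays limits the precision of every value.

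For the tandem genes GRXS5 and GRXS3, which were dim or undetected in the wild type, every transgenic array lay above every wild-type array. GRXS5 read 0.346%, 0.211%, 0.887% and 0.479% in wild-type replicates 1 to 4 and 11%, 4.51%, 2.93% and 8.17% in transgenic replicates 1 to 4. No wild-type array detected it and all 4 transgenic arrays did, so its fold depends on the floor set for the wild type. Against the dimmest detected signal or the probe's own signal, whichever was higher on each wild-type array, it was at least 7.95-fold higher in the transgenic leaves. That floor is not a ceiling for undetected probes, and with the highest floor of any array, 1.61%, set for all arrays the log2 difference was 1.88. The fitted log2 difference was 3.82 ± 0.55 (SE, n = 4 per genotype), which is no bound. GRXS5 therefore passed the filter only through the transgenic arrays.

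GRXS3, the last gene of the cluster, read 1.26%, 0.225%, 1.1% and 1.18% in the wild type and 8.99%, 4.48%, 2.82% and 7.86% in the transgenic leaves. It was detected on all arrays but wild-type replicate 2, the 1 low array among the wild types. The log2 signal was -7.01 ± 1.19 (SD, n = 4) in the wild type and -4.19 ± 0.77 (SD, n = 4) in the transgenic leaves. The difference was 2.81 ± 0.64 (SE), or 7.03-fold, and it was 2.22 without wild-type replicate 2. With the highest array floor set for all arrays it was 1.76. Within the slides it was 2.34 and 3.29, against 3.45 and 4.19 for GRXS5.

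GRXS8, at the other end of the cluster, overlapped between the genotypes. Its signals were 2.89%, 1.1%, 3.35% and 1.83% in the wild type and 8.68%, 2.76%, 2.68% and 5.68% in the transgenic leaves. Transgenic replicates 1 and 4 were above all wild-type arrays, while replicates 2 and 3 lay inside the wild-type range. The log2 difference was 1.06 ± 0.49 (SE), or 2.08-fold, and it differed between the slides, with 0.35 on slide 1 and 1.77 on slide 2.

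GRXS4 and GRXS7, the middle genes, were near or below background and did not enter the fit across genes. GRXS4 read 0.116% to 0.228% in the wild type, where no array detected it, and 1.82%, 0.299%, 0.379% and 1.45% in the transgenic leaves, where replicate 4 alone detected it. The signal of 1.82% on transgenic replicate 1 was not well above background there, and on that array the dimmest detected signal was 1.61%. GRXS7 read 0.183% to 0.400% in the wild type, again undetected, and 0.866%, 0.987%, 0.556% and 2.95% in the transgenic leaves, where replicate 4 alone detected it. With 3 of 4 transgenic arrays also undetected for each gene, no fold is given.

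**Figure D1:**
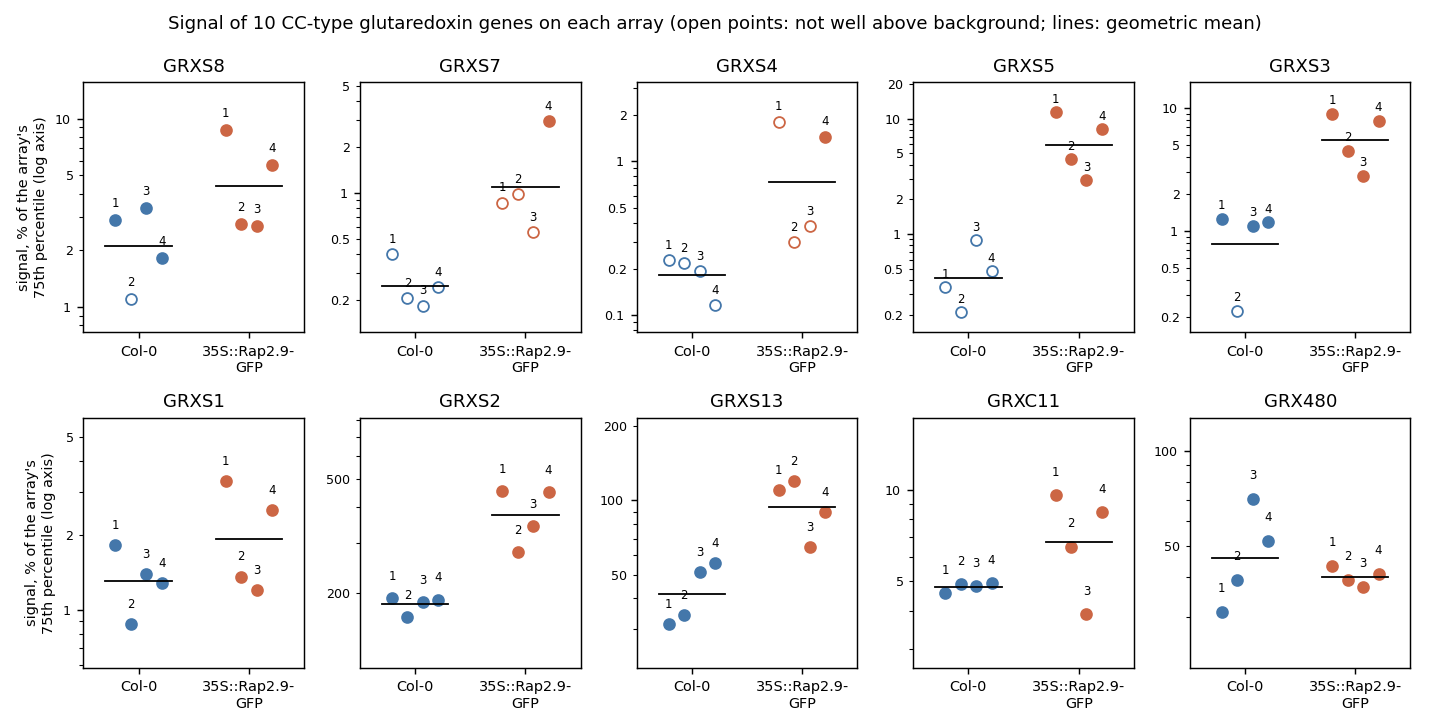
Signal of the brightest probe of each of the 10 glutaredoxin genes on the 4 Col-0 and the 4 35S::Rap2.9-GFP arrays, as a percentage of the array's 75th percentile on log axes that differ between panels. Numbers are replicates, open points were not well above background and lines are geometric means. The genotypes overlap for GRXS8, GRXS1, GRXC11 and GRX480, and GRXS5 is open on all 4 wild-type arrays.

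Outside the cluster, GRXS2 and GRXS13 were higher on every transgenic array than on every wild-type array. GRXS2, on chromosome 5, was detected on all 8 arrays. It read 192%, 165%, 186% and 190% in the wild type and 453%, 279%, 342% and 449% in the transgenic leaves. The log2 signal was 0.87 ± 0.10 (SD, n = 4) against 1.90 ± 0.34 (SD, n = 4), a difference of 1.03 ± 0.16 (SE) or 2.04-fold. The slides gave 0.90 and 1.15, and leaving out any 1 array gave 0.93 to 1.17.

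GRXS13, on chromosome 1, has 3 probes, and they did not read alike. The brightest probe gave 31.4%, 34.2%, 51.1% and 55.8% in the wild type and 110%, 120%, 64.8% and 89.4% in the transgenic leaves, with all transgenic arrays above all wild-type arrays. Its log2 difference was 1.16 ± 0.26 (SE), or 2.24-fold, with 1.37 and 0.95 within the slides. The second probe gave 1.2 ± 0.30 (SE), also without overlap. The third and dimmest probe gave -0.03 ± 0.84 (SE), overlapped between genotypes, and was detected on 3 arrays of each. The mean of the 3 probes differed by 0.78. The files give no probe sequence, so which part of the transcript each reads is not known here.

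GRXS1, GRXC11 and GRX480 overlapped between the genotypes. GRXS1, on chromosome 1, read 1.83%, 0.876%, 1.40% and 1.29% in the wild type and 3.32%, 1.36%, 1.21% and 2.53% in the transgenic leaves. Transgenic replicates 1 and 4 were again above all wild-type arrays and the other two were not, for a log2 difference of 0.56 ± 0.37 (SE). Its signals were near the dimmest detected ones, and with quantile normalisation it differed by 0.17. GRXC11, on chromosome 3, was even among the wild types, at 4.57%, 4.89%, 4.83% and 4.93%, and uneven among the transgenics, at 9.58%, 6.5%, 3.89% and 8.47%. There 3 transgenic arrays were above and replicate 3 below every wild-type array, so that the difference was 0.49 ± 0.26 (SE) with all arrays and 0.75 without transgenic replicate 3.

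GRX480, the salicylic acid-induced member, showed the opposite spread. It read 31.1%, 39.2%, 70.7% and 52.2% in the wild type and 43.3%, 39.1%, 37.2% and 40.8% in the transgenic leaves. The transgenic arrays lay within a narrow band inside the wild-type range, and the log2 difference was -0.20 ± 0.24 (SE). A second, dim probe differed by 0.16 ± 0.46 (SE) and was detected on 3 wild-type arrays and 1 transgenic array. Leaving out 1 array at a time moved the brighter probe's difference from -0.39 to 0.01, and the latter came without wild-type replicate 3.

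Of the 8 genes in the fit, GRXS3, GRXS5, GRXS2 and GRXS13 were past an adjusted p of 0.05 and none was lower, where 18.6% of all 25102 genes were higher and 16.0% lower. The same 4 had transgenic arrays wholly above the wild-type arrays, which held for 19.7% of all genes. Since these genes were chosen with this difference known, nothing is read from those counts. The median log2 difference of the 8 was 1.04 and that of all genes 0.03. With normexp background correction, a model that takes part of a dim signal as background and adds an offset of 50, GRXS3 differed by 0.85 and GRXS5 by 0.91, while GRXS2 differed by 0.99 and GRXS13 by 1.03. GRXS8 then differed by 0.32, GRXS1 by 0.01, GRXC11 by 0.18 and GRX480 by -0.22. In that setting 2 of the 8 were past the threshold, both higher, beside 5.12% of all genes higher and 5.94% lower. In leaf RNA, fewer cells with a transcript and less transcript per cell cannot be told apart. Tandem glutaredoxins have similar sequences, and whether their probes bind each other's transcripts was not tested.

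The transgenic arrays differed among themselves in a way that most of the 10 genes shared. Replicates 1 and 4 were the 2 highest transgenic arrays for 7 of the 8 genes in the fit, GRXS13 being the exception. By each gene's brightest probe it was 8 of the 10, with GRXS4 added. GRXS4 was not in the fit and was undetected on replicate 1, where the dimmest detected signal was the highest of any array, 1.61%. Of all genes in the fit, 16.5% had this order, which was noticed in these values and then counted. The mean of replicates 1 and 4 exceeded that of replicates 2 and 3 by 1.41 on the log2 scale for GRXS5, 1.37 for GRXS8, 1.24 for GRXS3 and 1.18 for GRXS1. It was 0.84 for GRXC11, 0.55 for GRXS2, 0.17 for GRXS13 and 0.14 for GRX480. Replicates 1 and 3 were on slide 2 and replicates 2 and 4 on slide 1. The cause of this order among the transgenic arrays was not tested. Replicate 1 also had the highest share of detected probes, 84.3%, and replicate 4 the lowest, 72.5%.

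**Figure D2:**
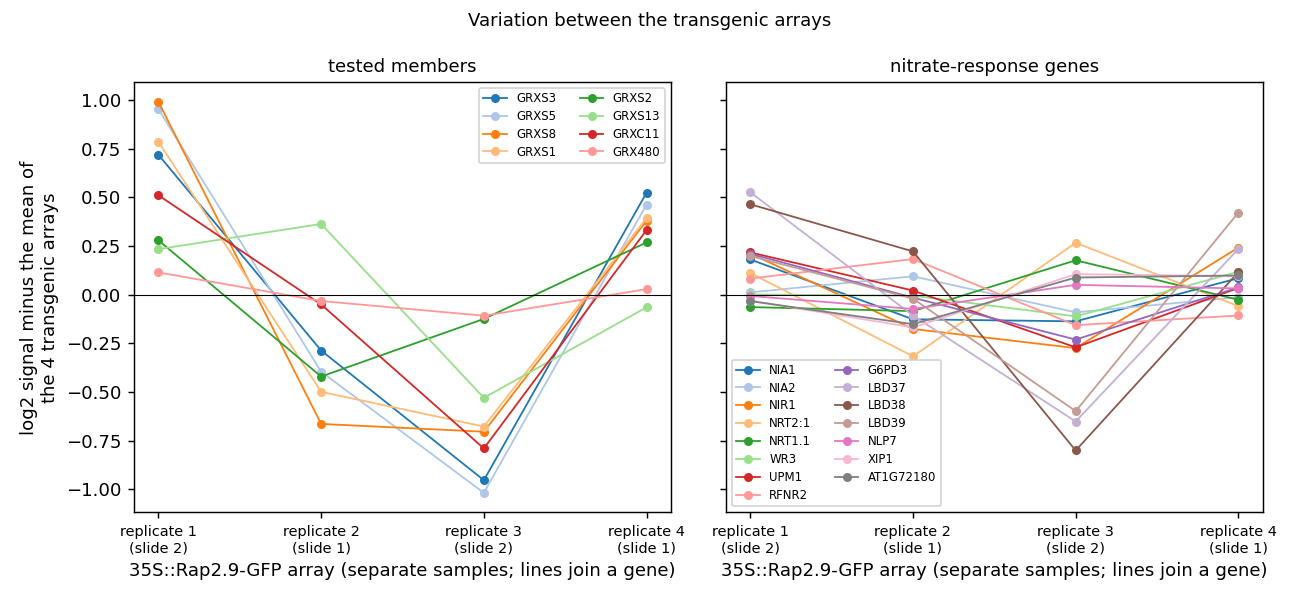
Log2 signal on each 35S::Rap2.9-GFP array minus the mean of the 4 transgenic arrays, for the 8 glutaredoxins in the fit (left) and 15 nitrate-response genes (right). Lines join the values of 1 gene and imply no order of the replicates. Most glutaredoxin lines are high at replicates 1 and 4 and low at replicate 3.

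The genes beside the cluster were compared with it. Of the 5 protein-coding genes on each side, 6 were in the fit, 4 were higher in the transgenic leaves and none was lower, where 18.6% of all genes were higher and 16.0% lower, and their median log2 difference was 0.32. AT4G15610 rose by 0.75 ± 0.19 (SE), with an adjusted p of 0.0222, and was the largest of the 6. AT4G15630 rose by 0.50 ± 0.08 (SE, adjusted p = 0.00243), AT4G15730 by 0.40 ± 0.06 (SE, adjusted p = 0.00291) and AT4G15620 by 0.23 ± 0.08 (SE, adjusted p = 0.0493). AT4G15640 differed by -0.13 (adjusted p = 0.273) and AT4G15720 by -0.08 (adjusted p = 0.514). AT4G15650, which adjoins GRXS8, and SCRL11 were below the filter, and AT4G15710 and AT4G15715, which follow GRXS3, had no matched probe. The call for AT4G15620 was lost under 13 of 20 alternatives, among them 7 of the 8 fits that leave out 1 array, a slide block (adjusted p = 0.0684) and normexp. That for AT4G15730 was lost with normexp (adjusted p = 0.900), and that for AT4G15610 was lost when any of 4 arrays (wild-type replicates 1 and 2, transgenic replicates 2 and 3) was left out.

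**Figure D3:**
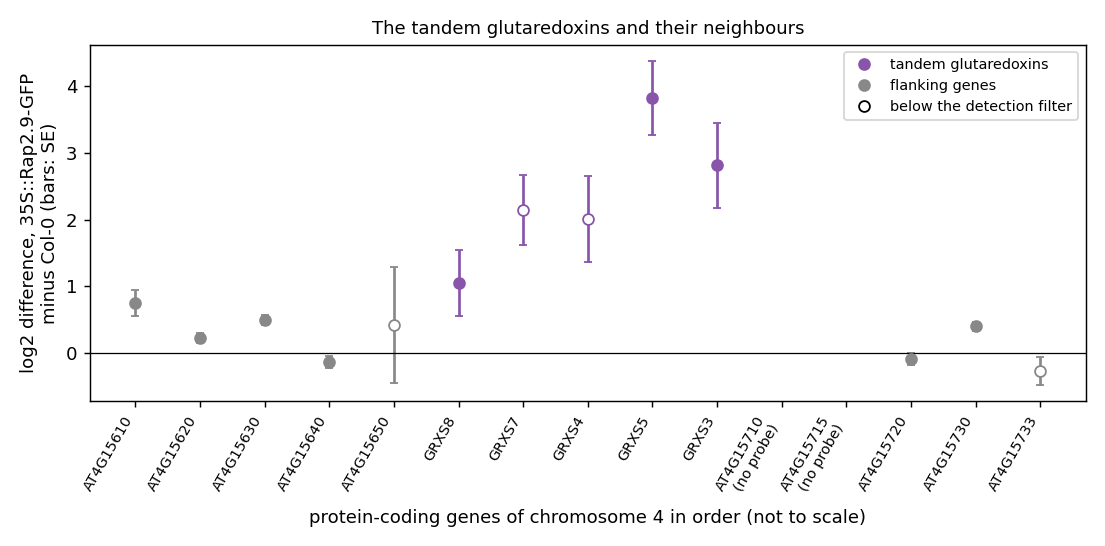
Log2 difference between 35S::Rap2.9-GFP and Col-0 leaves, with its SE, for the 5 tandem glutaredoxins and the flanking protein-coding genes in chromosome 4 order. Distances are not to scale and open points were below the detection filter. Fitted values of GRXS5, GRXS4 and GRXS7 are set against undetected wild-type signals and are no measured size. The flanking genes in the fit lie between -0.13 and 0.75.

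The other 11 CC-type glutaredoxins are those left after the members were chosen with their difference known. Any contrast between them and the members therefore follows in part from that choice. Of 9 in the fit, 1 was higher, 5 were lower and 3 did not pass, beside 18.6% of all genes higher and 16.0% lower. The median log2 difference of the 9 was -0.50. AT2G47880 fell most. It read 322%, 424%, 489% and 572% in the wild type and 151%, 123%, 159% and 114% in the transgenic leaves, with every transgenic array below every wild-type array. The log2 difference was -1.71 ± 0.19 (SE), which is 3.26-fold lower, with an adjusted p of 0.000687 in limma. The slides gave -1.75 and -1.66, and with normexp it was -1.69.

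AT3G62930 was the only 1 of the 9 that rose, from 2.89%, 2.68%, 3.43% and 2.74% to 9.81%, 6.17%, 5.95% and 8.08%. The genotypes did not overlap, and the log2 difference was 1.33 ± 0.17 (SE, adjusted p = 0.00127), or 2.52-fold. Its signal is dim, and with normexp it differed by 0.42 (adjusted p = 0.771). On chromosome 3 it lies near GRXC11, with 1 coding gene between them, and AT3G62960 is next to GRXC11 on the other side. AT3G62960 read 1.96% to 2.83% in the wild type and 4.24%, 2.05%, 1.22% and 0.734% in the transgenic leaves, a difference of -0.50 ± 0.50 (SE, adjusted p = 0.470). The 3 neighbours thus had fitted differences of 1.33, 0.49 and -0.50. With quantile normalisation AT3G62960 differed by -0.71 and passed, with an adjusted p of 0.0395.

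The other 4 lower genes changed less. AT5G11930 fell by 0.70 ± 0.13 (SE, adjusted p = 0.00647) and AT4G33040 by 0.69 ± 0.14 (SE, adjusted p = 0.00908). AT1G06830 fell by 0.53 (adjusted p = 0.00893) and AT2G30540 by 0.43 (adjusted p = 0.0188), each with all transgenic arrays below all wild-type arrays. ROXY1 differed by -0.46 ± 0.20 (SE, adjusted p = 0.123), and transgenic replicate 2 read 78.8% where the other transgenic arrays read 42.7% to 45.9%. Without that array the difference was -0.66 with an adjusted p of 0.00509. AT3G21460 differed by 0.13 (adjusted p = 0.548). ROXY2 was not detected on any array, and AT2G47870, which neighbours AT2G47880, had no matched probe. With normexp 0 of the 9 were higher and 2 lower. Over all 21 genes, 17 were in the fit and the median was 0.13. Of these, 5 were past the threshold upwards and 5 downwards, beside 18.6% and 16.0% of all 25102 genes.

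**Figure D4:**
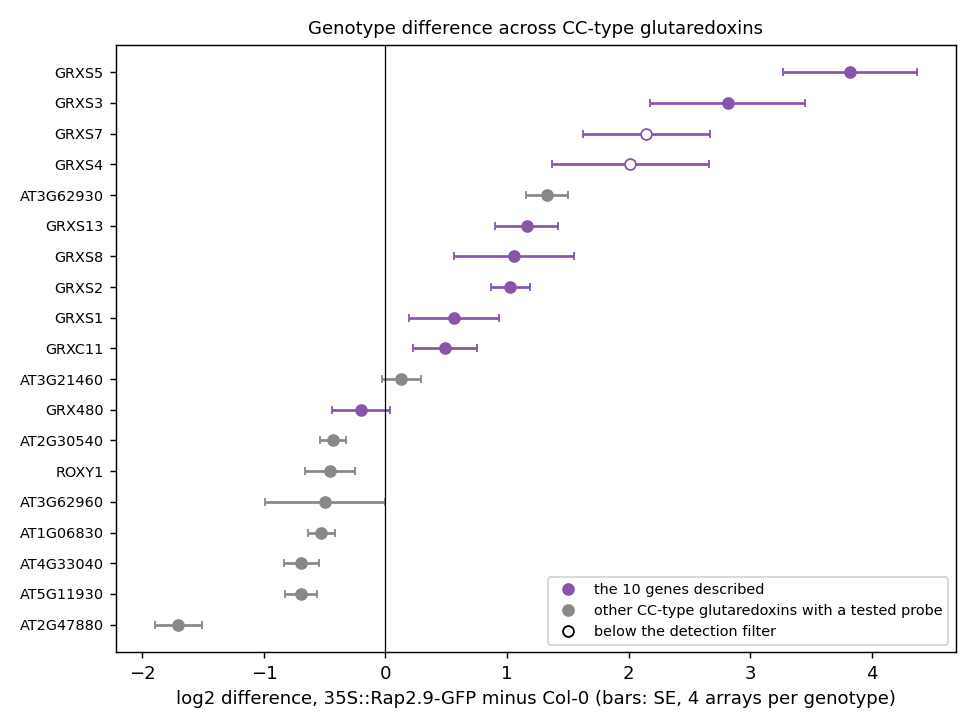
Log2 difference between 35S::Rap2.9-GFP and Col-0 leaves, with its SE (4 arrays per genotype), for the 10 glutaredoxins described (violet) and the 9 other CC-type glutaredoxins in the fit (grey). Open points were below the detection filter, where the fitted value is no bound. The fitted values of the 10 genes run from -0.20 to 3.82, the highest against undetected wild-type signals, and the others from -1.71 to 1.33.

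In the remaining glutaredoxin classes, with the active sites CPYC and CGFS, the log2 differences were at most 0.48 in size. Of 10 genes, all in the fit, 1 was higher, 4 were lower and 5 did not pass. Over the array, 18.6% of genes were higher and 16.0% lower. The median log2 difference of the 10 was -0.18. GRX4, the mitochondrial GRXS15, fell by 0.48 ± 0.07 (SE, adjusted p = 0.00169). GRXC1 fell by 0.30, the chloroplast CXIP2 by 0.22 and the chloroplast CXIP1 by 0.18. Of 20 alternatives, 8 lost the call of GRXC1, 4 that of CXIP2, 9 that of CXIP1 and 0 that of GRX4. AT5G20500, named because it was the 1 that rose, differed by 0.17 (adjusted p = 0.0440). The class had 0 higher in each fit that left out 1 array, except the fit without wild-type replicate 3.

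The TGA factors, which CC-type glutaredoxins bind, and their partners were close to level. Of 11 in the fit, 1 was higher, 1 was lower and 9 did not pass, beside 18.6% of all genes higher and 16.0% lower. The median log2 difference of the 11 was -0.16. NPR1, the salicylic acid receptor and TGA coactivator, rose by 0.43 ± 0.10 (SE, adjusted p = 0.0136). TGA3 fell by 0.22 ± 0.06 (SE, adjusted p = 0.0220).

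Jasmonate and ethylene defence genes are the class that GRX480 represses when overexpressed. Of 4 such genes, 2 were higher and 2 did not pass, with a median of 1.61. The shares over all genes were 18.6% higher and 16.0% lower. The defensin gene PDF1.2b read 337%, 163%, 446% and 490% in the wild type and 3384%, 8437%, 3222% and 2588% in the transgenic leaves. Its log2 difference was 3.57 ± 0.47 (SE, adjusted p = 0.00132), and that of PDF1.2 was 2.78 ± 0.37 (SE, adjusted p = 0.00138). Both were highest on transgenic replicate 2, unlike the tandem glutaredoxins. ORA59, the ERF factor that activates PDF1.2, differed by 0.44 (adjusted p = 0.0740) and ERF1 by -0.52 (adjusted p = 0.0509).

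The nitrate-response genes were mostly higher. Of 16 listed, 15 were in the fit, 12 were higher, 2 lower and 1 did not pass, beside 18.6% of all genes higher and 16.0% lower. The median log2 difference was 0.88 against 0.03 over all genes. LBD39, a repressor of nitrogen-responsive genes, read 15.0%, 7.88%, 10.6% and 12.9% in the wild type and 105%, 89.8%, 60.2% and 122% in the transgenic leaves. It rose by 3.01 ± 0.27 (SE, adjusted p = 0.00025), or 8.08-fold, with 3.05 and 2.98 within the slides. Its relative LBD37 rose by 1.84 ± 0.27 (SE, adjusted p = 0.00206). Nitrite reductase NIR1 rose by 1.23 ± 0.18 (SE, adjusted p = 0.00191) and the plastid glucose-6-phosphate dehydrogenase G6PD3 by 1.15 ± 0.10 (SE, adjusted p = 0.000228). NRT2.1, 1 of the 12, lost its call under 12 of 20 alternatives and is also used below as a root marker.

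The 2 lower genes of this list, named for that reason, were the nitrate transporter and sensor NRT1.1, which fell by 1.14 ± 0.08 (SE, adjusted p = 8.7e-05), and the peptide receptor CEPR2, which fell by 0.59 ± 0.07 (SE, adjusted p = 0.00102). Transgenic replicates 1 and 4 were the 2 highest transgenic arrays for 7 of the 15 genes, LBD37, LBD39 and NIR1 among them, beside 16.5% of all genes. With normexp, 10 were higher and 1 lower, LBD39 differed by 2.43 and NIR1 by 1.18.

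**Figure D5:**
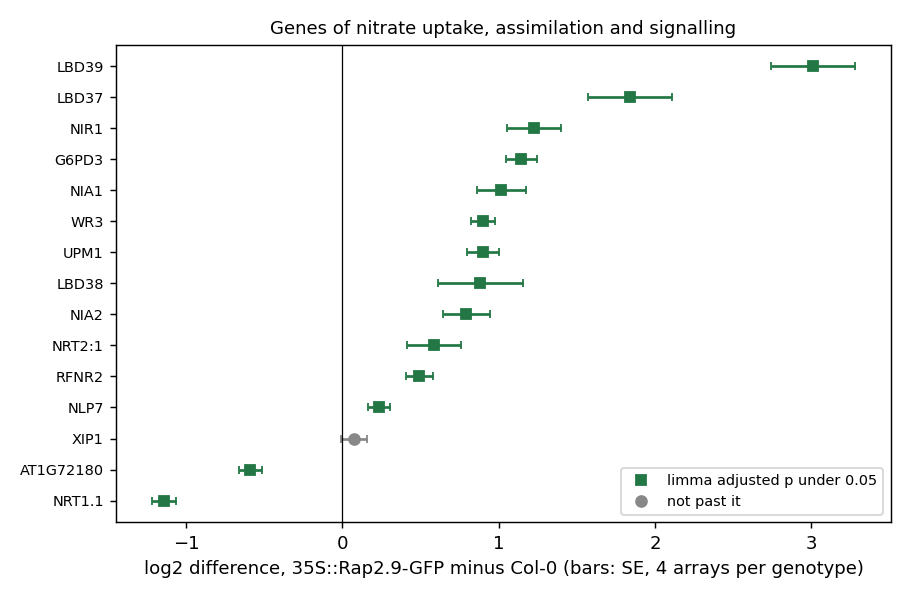
Log2 difference between 35S::Rap2.9-GFP and Col-0 leaves, with its SE (4 arrays per genotype), for the 15 nitrate-response genes in the fit. Green squares were past an adjusted p of 0.05 in limma. LBD39 is highest at 3.01 and NRT1.1 lowest at -1.14, and WR3, XIP1 and AT1G72180 are NRT3.1, CEPR1 and CEPR2.

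The cytokinin response regulators did not move one way. Of 11 in the fit, 2 were higher, 3 lower and 6 did not pass, with a median of -0.03. The shares over all genes were 18.6% higher and 16.0% lower. The negative regulators of type A went both ways. ARR16 fell by 1.22 ± 0.12 (SE, adjusted p = 0.000387) and ARR7 by 0.58 ± 0.11 (SE, adjusted p = 0.00696), while ARR9 rose by 0.75 ± 0.11 (SE, adjusted p = 0.00181) and ARR8 by 0.35 ± 0.08 (SE, adjusted p = 0.0159).

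The glutathione and thioredoxin system supplies electrons to redox proteins of this kind. Of its 10 genes, 5 were higher, 2 lower and 3 did not pass, with a median of 0.14. The shares over all genes were 18.6% higher and 16.0% lower. The cytosolic thioredoxins TRX3 and TRX5 fell by 0.84 (adjusted p = 0.000232) and 0.72 (adjusted p = 0.00920). Thioredoxin TRX1 rose by 0.57 (adjusted p = 0.00511) and glutathione reductase GR1 by 0.41 (adjusted p = 0.00168).

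The 5 genes with the profile nearest to the mean of the 5 tandem genes over the 8 arrays were AT1G30730, AT1G10417, AT2G44380, PP2-B15 and AT1G30190. Likeness was the root mean square difference of log2 values centred on each gene's mean, and it was 0.27, 0.33, 0.37, 0.39 and 0.42 in that order. AT1G30730 read 1.77%, 0.860%, 1.17% and 1.28% in the wild type and 15.1%, 4.78%, 3.34% and 9.43% in the transgenic leaves. As the 5 were picked for this profile, which includes the mostly undetected GRXS4 and GRXS7, their difference between the genotypes and their order of arrays follow from the choice. PP2-B15, which no wild-type array detected, was at least 5.79-fold higher against the floor used for GRXS5. That floor, again, is not a ceiling for undetected probes. With normexp none of the 5 was past the threshold. GRXS3, GRXS8 and GRXS5, themselves part of the tandem mean, lay 0.51, 0.70 and 0.82 from it. Among the members outside the cluster, GRXS2 lay 0.81 from the tandem mean, GRXS13 0.86, GRXS1 0.92, GRXC11 1.03 and GRX480 1.43. Of other genes, 14 were nearer to the mean than GRXS3, 143 than GRXS8, 399 than GRXS5, 375 than GRXS2 and 15103 than GRX480.

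Markers of other cells and organs also differed between the genotypes, where 18.6% of all genes were higher and 16.0% lower. Among the 5 xylem markers all 5 were higher, and their summed signal was 63.3% to 157% in the wild type and 158% to 246% in the transgenic leaves. All 4 guard cell markers were higher, with sums of 166% to 210% and 252% to 272%. Both root markers were higher, with sums of 8.04% to 16.9% and 34.9% to 112%, led by the root beta-glucosidase PYK10, which differed by 3.1. The other root marker, NRT2.1, overlapped between the genotypes and is also counted in the nitrate list. Of 4 flower organ markers 3 were in the fit and 2 were higher, with sums of 7.67% to 18.2% and 19.1% to 31.6%, and AP3 was not detected on any array.

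Of 3 phloem markers 2 were lower, with sums of 1634% to 1982% and 1239% to 1496%. Of 4 mesophyll markers 1 was higher, with sums of 45107% to 53457% and 40457% to 56077%. The 2 senescence markers were higher, with sums of 42.4% to 122% and 162% to 437%, and the seed markers did not pass the filter. The counts rest on single arrays in several lists. Leaving out 1 array at a time left 3 to 5 xylem markers higher, with 3 without any of wild-type replicates 1, 3 and 4 and transgenic replicates 1, 2 and 3. It left 1 root marker higher, NRT2.1 being lost, without any of wild-type replicates 1 and 3 and transgenic replicates 1, 3 and 4. It left 3 guard cell markers higher, KAT1 being lost, without any of wild-type replicates 3 and 4 and transgenic replicates 1, 3 and 4. It left 1 phloem marker lower, SWEET12 being lost, without any of wild-type replicates 3 and 4 and transgenic replicate 4. The call of SAG12 was lost under 13 of 19 alternatives, among them a slide block and the fits without any of wild-type replicates 1 to 3 and transgenic replicates 1 and 3, which left 1 senescence marker higher. For these lists the 4 transgenic arrays did not share the order of the tandem genes: replicates 1 and 4 were highest for SEP3 and KAT1 alone. With normexp, 0 of the xylem, guard cell, root and flower organ markers were past the threshold, and 1 phloem marker and 1 senescence marker were. The part of these differences in the values of the glutaredoxins was not tested.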

How the data were processed

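The deposited scanner files hold spot intensity values, made by Agilent Feature Extraction 11.5.1.1 per the file headers, with the processed signal background-subtracted and not normalised between arrays. The authors' deposited value table has log2 values of 43663 probes, centred per probe. The sources used here do not say how they were normalised. Its column medians were 0.0015, 0.0116, -0.0036 and 0.0041 for wild-type and -0.0146, -0.0040, -0.0025 and 0.0019 for transgenic replicates 1 to 4. Pearson's r across probes with the centred scanner values was 0.658 on transgenic replicate 1 and 0.851 to 0.969 on the others.

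The values used were the log2 processed signal minus each array's 75th percentile. Of 45220 spots, 1417 controls and 25 to 63 outlier spots per array were left out. Probes detected on at least 4 of 8 arrays were tested, 33160 of 43603, with the brightest tested probe standing for a gene. Probes were matched to loci through RefSeq transcripts (34348 probes). The array's build lacks the suffix of the gene table's TAIR10.1, so no positions are given. Genotypes were compared over all 25102 genes with limma 3.58.1 in R 4.3.3, two-sided, with Benjamini-Hochberg adjustment and a threshold of 0.05, after a check on simulated data.

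The design text calls the samples biological replicates, and p-values measure the spread between them. Samples with the same replicate number did not deviate together throughout (r of 0.16, -0.09, -0.32 and 0.27), so they were not paired. For replicates 1 and 4 the transgenic array that best matched the wild-type array had the same number, and for replicates 2 and 3 it did not. The members and gene lists were chosen with earlier results of these data known. Named were all members, all other CC-type glutaredoxins, the flanking genes, up to 4 genes past the threshold with the largest change per list, and the 5 nearest profiles. The alternatives were normexp on the median spot signal (the mean signal is not in the files), quantile and median scaling, the deposited table, no filter or one on all arrays, outlier spots kept, probes averaged per gene, a slide block, a replicate block, each array left out, and a floor on dim signals chosen after seeing the data. No sequence was used here.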

Additional observations from a re-analysis of the deposited data

Results flagged for a closer look

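Among 142 groups of 4 arrays, for 71 probes of the named genes, 4 groups held an array far from the other three, by the gap to the nearest array over the group's range. Chance gives about 1 such group in 20.

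GRXS3 on wild-type replicate 2 had a log2 signal of -8.79, or 0.225%, beside 1.1% to 1.26% on the other wild-type arrays, and was not detected there. ROXY1 on transgenic replicate 2 had a log2 signal of -0.34, or 78.8%. SAG12, a senescence protease, had a log2 signal of -0.69, or 61.8%, on transgenic replicate 2 and 1.96% to 3.34% on the other transgenic arrays. GRXC1 on transgenic replicate 1 had a log2 signal of 3.23, or 939%, and 1095% to 1128% on the other transgenic arrays.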

How the results depend on the processing

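No direction reversed past the threshold for any named gene under any alternative. GRXS2 differed by 0.93 to 1.17 over all of them. As the members were chosen with this contrast known, nothing is read from their calls in this section. Normexp moved most counts: 1285 genes were higher and 1492 lower, against 4657 and 4023. With it 2 members (GRXS2 and GRXS13) and 0 other CC-type glutaredoxins were higher and 2 of the latter lower. The CPYC and CGFS class then had 0 higher and 1 lower, the TGA list 0 and 0, the cytokinin list 1 and 1, the glutathione list 2 and 1, and 1 nitrate gene was lower. At the values floored after seeing the data, GRXS3 differed by 1.76 and GRXS5 by 1.88. The filter on all 8 arrays left 2 members higher, since GRXS3 and GRXS5 were no longer tested, 2 TGA genes lower and 1 defence gene lower.

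Median scaling gave 3197 genes higher and 5012 lower, so that 38.9% of called genes were higher against 53.7%. It left 0 of the CPYC and CGFS class, 1 cytokinin and 2 glutathione genes higher, and made 3 TGA genes and 1 defence gene lower. Quantile normalisation and the deposited table each gave 2 TGA genes and 1 defence gene lower. With no filter, 0 of the CPYC and CGFS class were higher and 2 lower. The mean of a gene's probes gave 2 TGA genes lower and lost the call of GRXS13. Both floored settings made 1 defence gene lower, and without transgenic replicate 1 the floored values left 0 of the CPYC and CGFS class higher.

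The replicate block, for numbers that were not taken as pairs, gave 4020 genes higher and 2968 lower. With it 3 members, 0 of the CPYC and CGFS class and 1 cytokinin gene were higher and 2 TGA genes lower. Leaving out 1 array at a time gave 3523 to 4340 genes higher and 3021 to 4011 lower. The members higher numbered 4 to 5, the fifth being GRXC11 without transgenic replicate 3. The other CC-type genes had 1 higher and 4 to 6 lower, the CPYC and CGFS class 0 to 1 and 1 to 5, the TGA list 1 and 0 to 2, the defence genes 2 to 3 and 0 to 1, the nitrate list 9 to 11 and 2, the cytokinin list 2 to 3 and 2 to 3, and the glutathione list 4 to 5 and 2. Apart from the loss of GRXS3 and GRXS5 through the filter on all arrays, the causes of these changes were not tested. Low signal over background limits GRXS4, GRXS7, GRXS5 and GRXS3 most, and GRXS8 and GRXS1 as well.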
